A study of Homo sapiens with 6 samples.

Results

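Expression of 6 genes of the DNA mismatch repair pathway was examined in COV434 cells, with 3 control samples and 3 samples treated with 4HC, the active metabolite of the alkylating drug cyclophosphamide (CTX). The genes were MSH3, MSH6, PMS2, MLH3, PMS1 and EXO1. They were chosen by name, and all 6 were found among the 16798 genes of the deposited table and passed the filter on low counts. COV434 is a human cell line that the labels describe as granulosa cells and as wild type for the controls, and all samples came from this 1 line, kept in DMEM with fetal bovine serum. The treated cells, labelled CTX1 to CTX3, received 15 µM 4HC for 24 h, and no vehicle is named for the controls. The sources used here do not say whether the 3 samples of a group were grown separately, so p-values measure only the spread between these samples, which may be technical.

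Mismatch repair removes bases that were wrongly paired or slipped in during DNA replication. Heterodimers that contain MSH6 recognise single mispairs and short loops, and those that contain MSH3 recognise larger loops. A MutL-type heterodimer, in which PMS2 is the main partner and MLH3 and PMS1 are alternatives, is then recruited, and the PMS2 form nicks the new strand. The exonuclease EXO1 removes the strand from the nick past the mismatch, RPA covers the exposed template, and DNA polymerase delta with PCNA and its loader RFC fills the gap before LIG1 seals it. The same pathway is known to respond to some alkylated bases, which makes its genes of interest in cells given an alkylating agent.

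Library totals were between 16133786 and 16702316 expected counts, and the 5 most abundant genes took 4.80% to 5.05% of them. The first principal component separated the 2 groups and held 50.8% of the variance. The label of granulosa cells was not borne out by its markers: of the 11 granulosa markers in the table, 8 were below 1 CPM (the count scaled to library size) in every sample, with FOXL2, CYP19A1 and FSHR at or near 0, while AMH and HSD17B1 averaged 5.19 and 14.2 CPM in the controls. Of the 3 granulosa markers tested, 0 were called by edgeR at an adjusted or unadjusted p under 0.05. The summed level of the 11 was 17.4 to 24.2 CPM in the controls and 19.9 to 21.2 CPM after 4HC. Of 6 stromal and theca markers, LUM averaged 65.8 CPM in control and 64.6 CPM after 4HC and DCN 48.0 and 46.8 CPM, while COL1A2 averaged 2.88 and 2.61 CPM, COL1A1 0.918 and 1.24 CPM, and CYP17A1 and PDGFRA were below 1 CPM in every sample. The summed level of the 6 was 112 to 121 CPM in the controls and 110 to 121 CPM after 4HC. The summed level of 3 oocyte markers was 13.9 to 16.8 CPM and 14.6 to 17.4 CPM. None of the tested stromal or oocyte markers was called.

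Sequences at the start sites of MSH6, PMS2, PMS1 and EXO1 are shown first, since the results below turn on these members and PMS2 and PMS1 start close to a gene on the other strand. All come from RefSeq promoters on GRCh38.p14, read 5′ to 3′ on the strand of the member. Capitals mark the CCAAT box on either strand, and the E2F-type sequences TTTCCCGC, TTTGGCGC and TTTCGCGC and the CHR sequence TTTGAA were searched for as well. MSH6 is shown for the CCAAT box before its first start, and PMS2 for the stretch outside annotated exons between its start and that of AIMP2. PMS1 is shown for its neighbouring CCAAT boxes, and EXO1 for the bases just before its first listed start, where none of the searched sequences were found. That start of EXO1, at 241848204, lies inside its deposited gene range, which begins at 241847967. The listed start of PMS1, at 189784450, likewise lies inside its deposited range, which begins at 189784142. The printed bases of EXO1 and PMS1 are therefore within these ranges and not before them.
MSH6, chr2:47783085-47783114, plus strand: gaggcgcctgttgATTGGccactggggccc
PMS2, chr7:6009126-6009244, minus strand: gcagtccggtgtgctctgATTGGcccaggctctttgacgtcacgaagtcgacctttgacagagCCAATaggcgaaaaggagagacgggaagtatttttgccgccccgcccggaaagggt
PMS1, chr2:189784385-189784414, plus strand: tcgctgccagcggATTGGctgcgagcagcg
PMS1, chr2:189784402-189784431, plus strand: gctgcgagcagcgCCAATctcacgttgccc
EXO1, chr1:241848174-241848203, plus strand: ccgcaaggaacccgcgcaaattgaaaggtc
The table of promoters gives 4 starts for MSH6, 2 each for PMS2 and EXO1, and 1 each for MSH3, PMS1 and MLH3, and the 250 bases before each were searched. The CCAAT box was found before 1 of the 4 starts of MSH6, both starts of PMS2 and the start of PMS1, and before 32.0% of the 35116 starts in the whole table. An E2F-type sequence was found before the start of MSH3 and before none of the starts of the other members, compared with 2.32% of all starts. The CHR sequence, found before 13.3% of all starts, was before none of the members' listed starts. The first EXO1 window held only 13 bases before the deposited range of that gene, and its other window lay inside the range. The absence of motifs in these windows therefore does not describe the bases before that range.

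Compared with controls, EXO1 was higher and MSH6 was lower after 4HC, and the other 4 members were not called. EXO1, the exonuclease, rose 1.39-fold, and MSH6, a mismatch recognition subunit, fell by 9.71%. A gene was called when its edgeR quasi-likelihood p, adjusted by Benjamini-Hochberg over all 12368 genes tested, was under 0.05. By this rule 2 of the 6 members (33.3%) were called, and 36.4% of all genes tested were called, 19.2% as higher and 17.1% as lower. The share of members called was therefore near that of all genes. The median log2 fold change of the members was 0.01, and that of all genes was 0.00. At the study's cutoffs, a fold of at least 2 and an unadjusted p under 0.05, the edgeR fit called 0 members and 142 genes (1.15%) in all. The study applied these cutoffs with DESeq2 and reported far more genes, so this count is not the study's own. In bulk RNA, fewer cells that express a gene and less RNA per cell cannot be told apart, and this holds for each value below.

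**Figure D1:**
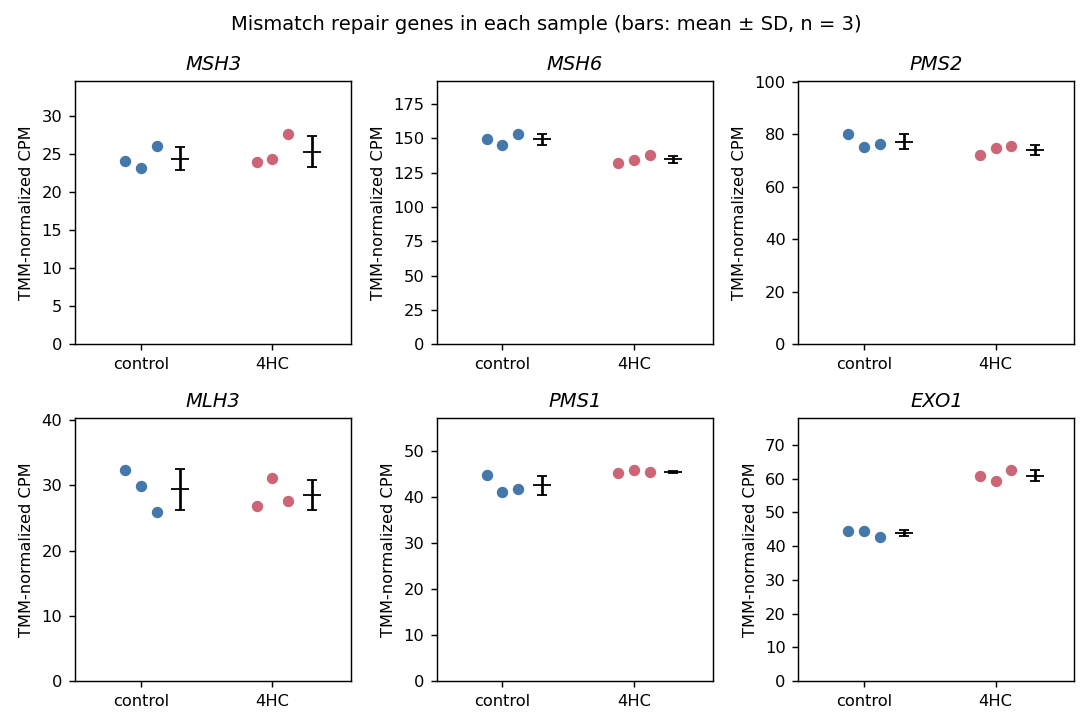
TMM-normalized CPM (vertical axes, from 0) of the 6 mismatch repair genes in each of the 3 control (blue) and 3 4HC (red) samples, with the mean and SD beside the points. EXO1 stands at 42.8 to 44.6 CPM in control and 59.3 to 62.5 CPM after 4HC, MSH6 at 145 to 153 and 132 to 137 CPM, and the points of MSH3, PMS2 and MLH3 overlap between groups.

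MSH6 (NCBI Gene 2956, chr2:47783145-47806954) is the mismatch-binding subunit for single mispairs and was the most abundant member. Its TMM-normalized level was 149, 145 and 153 CPM in the 3 controls and 132, 134 and 137 CPM in the 3 treated samples. Every treated sample was below every control. The mean fell from 149 ± 4.21 CPM to 135 ± 2.63 CPM (SD, n = 3), a log2 fold change of -0.15 with an SE of 0.038 and a 95% interval of -0.22 to -0.07 (edgeR, adjusted p = 0.00174). Of all genes tested, 13.1% were called lower with a log2 fold change at least as far below 0. The spread between samples was small beside the change, with a coefficient of variation of 2.83% in control and 1.95% after 4HC, where counting error alone gives 2.02% and 2.13%.

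MSH3 (NCBI Gene 4437, chr5:80654652-80876815), the subunit that recognises larger loops, was at 24.1, 23.1 and 26.1 CPM in the controls and 24.0, 24.4 and 27.7 CPM after 4HC. The groups overlapped, and the highest sample of each was the one numbered 3. Its log2 fold change was 0.05, with a 95% interval of -0.09 to 0.19 (edgeR, adjusted p = 0.585), so a fall larger than 0.09 or a rise larger than 0.19 lies outside the interval. Per transcript length, MSH6 was 6.48, 6.56 and 6.16 times the TPM of MSH3 in the controls and 5.78, 5.78 and 5.19 times after 4HC. The ratio was thus lower in every treated sample than in every control. Its mean went from 6.40 ± 0.215 to 5.58 ± 0.341 (SD, n = 3), a log2 difference of -0.20 with an exact two-sided permutation p of 0.1, which is the smallest p that 3 against 3 samples allow. The ratio shares its MSH6 values with the test above and is no separate evidence for the fall of that gene.

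PMS2 (NCBI Gene 5395, chr7:5970925-6009106) encodes the endonuclease subunit of the main MutL-type complex. Its level was 80.3, 75.1 and 76.5 CPM in the controls and 72.1, 74.7 and 75.5 CPM after 4HC, with overlap between 1 treated and 1 control sample. The log2 fold change was -0.06, with a 95% interval of -0.15 to 0.03 (edgeR, adjusted p = 0.309). PMS2 has near-identical copies: GENCODE release 29 lists 11 PMS2 pseudogenes, all on chromosome 7, and 0 of them had a row in the deposited table. How reads shared with these copies were assigned is not given in the sources used here, and the level of PMS2 is uncertain for that reason.

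PMS1 (NCBI Gene 5378, chr2:189784142-189877629), an alternative MutL-type partner whose role in repair is minor, was at 44.9, 41.1 and 41.7 CPM in the controls and 45.3, 45.8 and 45.4 CPM after 4HC. All treated samples were above all controls. Groups of 3 failed to overlap in this way for 45.3% of all genes tested and for 3 of the 6 members, EXO1, MSH6 and PMS1. The log2 fold change of PMS1 was 0.10, with a 95% interval of -0.01 to 0.21, and it was not called (edgeR, adjusted p = 0.156). With limma on log2(FPKM + 1) it was called as higher, at 0.13 on that scale and an adjusted p of 0.0436.

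MLH3 (NCBI Gene 27030, chr14:75013764-75051479), known for its role in meiotic crossing over and for a smaller part in mismatch repair, was at 32.3, 29.8 and 25.9 CPM in the controls and 26.9, 31.1 and 27.6 CPM after 4HC. It had the widest spread of the members in the controls, with a coefficient of variation of 10.9% where counting error gives 4.57%. Its log2 fold change was -0.04, with a 95% interval of -0.18 to 0.10 (edgeR, adjusted p = 0.677). The TPM of MLH3 was 0.348, 0.356 and 0.283 times that of PMS2 in the controls and 0.300, 0.351 and 0.297 times after 4HC. These ratios overlapped, with a log2 difference of -0.05 and an exact two-sided permutation p of 0.9.

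EXO1 (NCBI Gene 9156, chr1:241847967-241895148) had the largest change of the 6 members. Its level was 44.4, 44.6 and 42.8 CPM in the controls and 61.0, 59.3 and 62.5 CPM after 4HC. The lowest treated sample was well above the highest control. The mean rose from 43.9 ± 0.967 CPM to 60.9 ± 1.59 CPM (SD, n = 3), a log2 fold change of 0.47 with an SE of 0.051 and a 95% interval of 0.37 to 0.57 (edgeR, adjusted p = 6.35e-11). Of all genes tested, 4.69% were called higher with a log2 fold change at least as large. The coefficient of variation was 2.20% in control and 2.60% after 4HC, below the 3.73% and 3.17% of counting error.

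Because the members differ in length, their levels were compared with each other in TPM. In the controls the order was MSH6 at 58.8, PMS2 at 27.9, PMS1 at 24.3, EXO1 at 22.2, MSH3 at 9.20 and MLH3 at 9.16 TPM. The values of MSH3 and MLH3 overlapped between samples and those of the other neighbours in the order did not. After 4HC, EXO1 at 30.7 TPM stood above PMS2 at 26.4 and PMS1 at 26.2 TPM, with MSH6 still highest at 52.8 TPM and MSH3 and MLH3 lowest at 9.49 and 8.33 TPM. EXO1 thus moved from below PMS1 to above it, with no overlap between their samples within either group, while PMS1 and PMS2 overlapped after 4HC. Among all genes tested, 80.9% had a lower control TPM than MSH6 and 34.2% a lower one than MLH3.

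**Figure D2:**
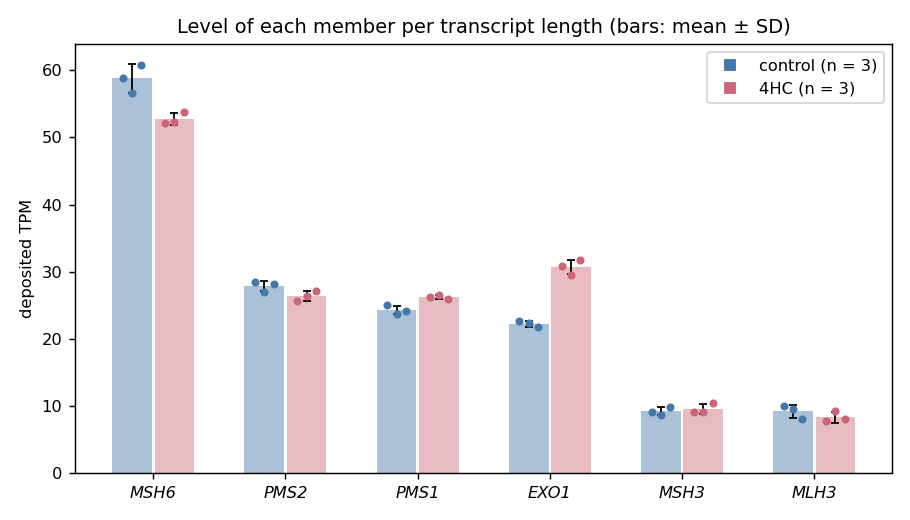
Deposited TPM (vertical axis, from 0) of each member, ordered by the control mean; bars and whiskers give the mean and SD of the 3 samples per group and points give the samples. MSH6 is highest at 58.8 TPM in control and 52.8 TPM after 4HC, and EXO1 goes from 22.2 to 30.7 TPM.

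Most of the listed genes that work in excision, resynthesis and ligation were higher after 4HC. Of 15 genes for excision, resynthesis and ligation, 12 were called as higher (80.0%) and 0 as lower, beside 19.2% and 17.1% of all genes tested. Their median log2 fold change was 0.22, beside 0.00 for all genes tested. PCNA, the sliding clamp that MutS- and MutL-type complexes and EXO1 also use, was the furthest changed: it averaged 275 CPM in control and 567 CPM in treated cells, with a log2 fold change of 1.04 (95% interval 0.98 to 1.11, edgeR, adjusted p = 6.87e-32). LIG1, the ligase that seals the repaired strand, averaged 80.7 and 132 CPM, with a log2 fold change of 0.70. All called RFC and RPA subunits were higher: RFC2, RFC5, RFC3 and RFC1 of the clamp loader by 0.41, 0.36, 0.20 and 0.18, and RPA3, RPA1 and RPA2 of the single-strand binding complex by 0.38, 0.22 and 0.21, all as log2 fold changes. POLD1, the catalytic subunit of DNA polymerase delta, was higher by 0.24 and its subunit POLD3 by 0.39. HMGB1, a chromatin protein that takes part in repair reconstituted in vitro, was higher by 0.14. The 3 genes that were not called were RFC4 (0.12, adjusted p = 0.0735), POLD2 (0.07) and POLD4 (0.02).

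Related nucleases and linked helicases varied among themselves. EXO1 belongs to a family of structure-specific nucleases with FEN1, GEN1 and ERCC5. FEN1, which trims flaps of Okazaki fragments, rose by 0.46, and GEN1, which cleaves Holliday junctions, by 0.38 on the log2 scale. ERCC5, the incision nuclease of nucleotide excision repair, was at 42.8 CPM in control and 42.4 CPM after 4HC (log2 fold change -0.01, adjusted p = 0.877). Of 8 factors tied to mismatch repair, 5 were called as higher (62.5%) and 0 as lower, with a median of 0.21. Among all genes tested, 19.2% were called as higher and 17.1% as lower. The 5 were the helicases BLM (0.62) and BRIP1 (0.60), MCM8 (0.32), and the glycosylases MUTYH (0.21, edgeR, adjusted p = 0.0350) and MBD4 (0.20). BLM and BRIP1 both bind a mismatch repair protein. With DESeq2 the count was 4, and with 1 sample left out it was 4 or 5. FAN1 (0.06), MCM9 (0.07) and SETD2, which writes the histone mark bound by MSH6 (-0.09), were not called. The meiotic homologue MSH5 went from 20.5 to 26.8 CPM (log2 fold change 0.39, adjusted p = 2.35e-05), and its reads can be shared with a read-through transcript of the neighbouring gene. MSH4 averaged 0.103 CPM in control and 0.0821 CPM in treated cells and was not tested.

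**Figure D3:**
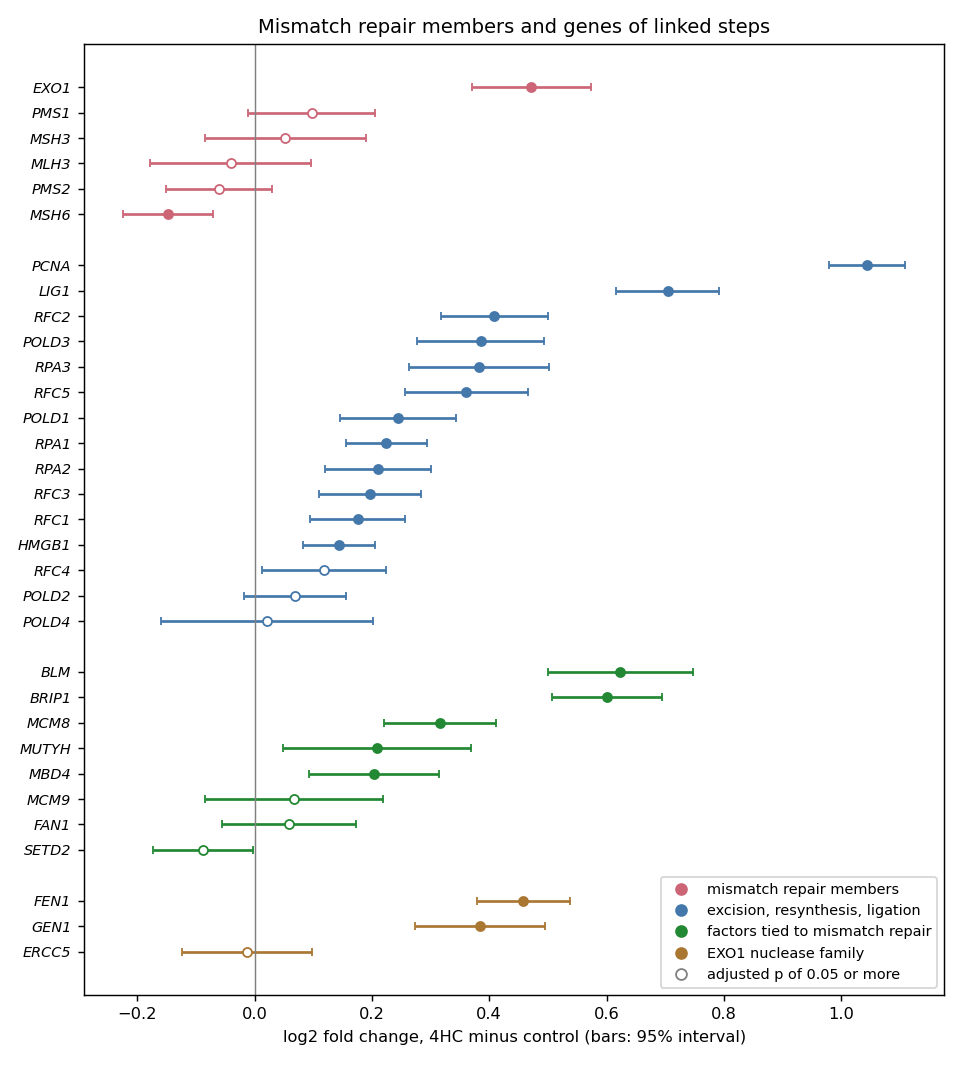
Log2 fold change after 4HC compared with control (horizontal axis), with its 95% interval, for the members and the 3 linked lists; filled points are genes with an edgeR adjusted p under 0.05. The members lie between -0.15 for MSH6 and 0.47 for EXO1. The 15 genes for excision, resynthesis and ligation lie between 0.02 for POLD4 and 1.04 for PCNA.

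Genes of the cell cycle and of the p53 response also differed between the groups. For comparison, 19.2% of all genes tested were called as higher and 17.1% as lower. Of 20 G1/S genes, 14 were called as higher and 1 as lower, with a median log2 fold change of 0.31. The largest changes were CDT1, a replication licensing factor (0.97), RRM2, a subunit of ribonucleotide reductase (0.84), and CCNE2, a cyclin (0.60), while the licensing helicase subunit MCM6 was the 1 that fell (-0.29). Of 20 G2/M genes, 6 were called as higher and 9 as lower, with a median of -0.08, and the largest changes were in the mitotic regulators PLK1 (-0.73), CDC20 (-0.66) and CCNB1 (-0.57). All 18 p53 targets listed were called as higher, with a median of 0.92, led by GDF15 (2.12), CDKN1A (1.80) and TP53I3 (1.57). The summed CPM of the G1/S genes was 2625 to 2684 in control and 3288 to 3309 after 4HC, and that of the G2/M genes 3077 to 3208 and 3130 to 3226. The summed CPM of the 6 members was 359 to 375 in control and 361 to 376 after 4HC, which overlap. The part of the G1/S, G2/M and p53 genes in the changes of EXO1 and MSH6 was not tested.

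Of the neighbours that start beside PMS2 and PMS1 on the opposite strand, AIMP2 was called as lower and ORMDL1 was not called. Neither member was called. The ratio tests below cannot give a p under 0.1, so they do not show that neighbour and member changed differently. AIMP2, a scaffold of the tRNA synthetase complex, starts 120 bases from PMS2. It was at 32.5, 28.2 and 29.3 CPM in the controls and 23.2, 26.9 and 24.5 CPM after 4HC, all lower than the controls. It fell by 0.27 on the log2 scale (95% interval -0.40 to -0.14, edgeR, adjusted p = 9.87e-04), compared with -0.06 for PMS2. The log2 ratio of AIMP2 to PMS2 was -1.30, -1.41 and -1.38 in the controls and -1.63, -1.47 and -1.62 after 4HC, a difference of -0.21 without overlap. ORMDL1, a regulator of sphingolipid synthesis, starts 286 bases from PMS1 and was not called (-0.08, adjusted p = 0.240), and its log2 ratio to PMS1 differed by -0.18 with overlap. The exact two-sided permutation p of the 2 ratios was 0.1 and 0.2, or 0.2 for both after Benjamini-Hochberg adjustment over the 2, and 0.1 is the smallest that this design allows.

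The exons of PMS1 and ORMDL1 share 103 bases on opposite strands in GENCODE release 29, and those of PMS2 and AIMP2 share 0. Whether counting used the strand is not given, so reads from the shared bases cannot be told apart. MSH6 has a longer overlap in that release, with 1785 exonic bases shared with FBXO11, a ubiquitin ligase subunit transcribed towards it. The deposited range of FBXO11, chr2:47795200-48094487, differs from its range there, chr2:47789316-47905793. Exons of the annotation used for counting were not compared, so the bases shared in the counting are not known. FBXO11 was at 114, 118 and 119 CPM in the controls and 108, 104 and 109 CPM after 4HC, and it was also lower (log2 fold change -0.13, edgeR, adjusted p = 0.00992). The share of the MSH6 change that shared reads could carry was not tested. FOXN2, to the other side of FBXO11, was not called (0.10, adjusted p = 0.251).

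Of the remaining neighbours named here, ACYP1 and MTRNR2L2 were called as higher and none was called as lower. EIF2B2, on one side of MLH3, was not called (-0.05), whereas ACYP1 on the other side was higher, from 5.69 to 7.88 CPM (0.47, adjusted p = 0.00225). Beside EXO1, CHML was not called (0.00) and PLD5 averaged 0.0808 and 0.0608 CPM and was not tested. OSGEPL1 (-0.04) and C2orf88 (0.13), which flank PMS1, were not called. MTRNR2L2, listed to the left of MSH3, was higher (0.15), and it resembles a mitochondrial ribosomal RNA gene, so its reads may be shared with that gene. RASGRF2 and RSPH10B, the right neighbour of MSH3 and the left neighbour of PMS2, were below 1 CPM in every sample and not tested.

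The genes whose levels followed each member most closely over the 6 samples were found among 10273 genes with a mean of at least 5 CPM, by the root mean square difference of log2 CPM relative to the control mean. For EXO1 these were CSNK1G1 (difference 0.026), GINS1, a subunit of the replicative helicase (0.027), and ZDHHC12 (0.032). For MSH6 they were PDHB, a pyruvate dehydrogenase subunit (0.0081), AGFG1 (0.0094) and TOMM70, a mitochondrial import receptor (0.011). The closest genes to PMS1 were EXOSC10, TPR and ACAP2 (0.0096 to 0.016), and to PMS2 WAC, ELOVL5 and KTN1 (0.012 to 0.016). Those closest to MSH3 were ALG12, ZNF354C and NT5C2 (0.024 to 0.029), and those closest to MLH3 were RABL2A, RSKR and ALMS1 (0.030 to 0.048). These are descriptions of 6 samples that share 2 conditions and carry no test.

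The table of transcripts listed 56 transcripts of the members, 38 of which were tested, and 0 were called by edgeR at an adjusted p under 0.05, compared with 1.29% of the 42216 transcripts tested. The edgeR fit of transcripts had a biological coefficient of variation of 0.724, where the fit of genes had 0.0277. Over all transcripts, edgeR called 546, and 58 to 127 when 1 sample was left out. The alternatives ranged from 0 calls, with the replicate number as a block, to 2491 with DESeq2. The absence of edgeR calls therefore does not show that the transcripts of the members were unchanged. At an unadjusted p under 0.05 there were 2 of them, compared with 11.0% of all transcripts. One was NM_000179, which held 93.2% to 96.2% of the MSH6 counts in each sample. Its expected counts were 2257, 2245 and 2409 in the controls and 2108, 2044 and 2148 after 4HC. The log2 fold change of NM_000179 was -0.13 (edgeR, adjusted p = 0.166). Its counts are most of those of the gene and are no separate evidence for the fall of MSH6. The other was XM_005267534 of MLH3, at 100.3, 57.7 and 70.2 counts in the controls and 10.4, 27.2 and 1.77 after 4HC. It was called by DESeq2 (log2 fold change -2.55, adjusted p = 0.0457) and not by edgeR (-2.54, adjusted p = 0.361).

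For EXO1 the count of the gene was steady between samples of a group and its estimated division among transcripts was not. How reads are divided between transcripts is an estimate, and its part in this variation was not tested. XM_006711840, which had the most counts over all 6 samples, took 35.1% to 40.8% of the counts in the controls and 15.9% to 34.5% after 4HC. NM_001319224 had 270.2, 264 and 217 counts in the controls but 71.0, 0.02 and 382 counts in the 3 treated samples, so that the highest and the lowest value were both found after 4HC. XM_011544321 ranged from 10.2 to 166 counts in the controls and from 77.1 to 479 after 4HC, where its mean of 314 counts was above the 236 of XM_006711840. Of the 7 EXO1 transcripts tested, none was called by edgeR, the lowest adjusted p being 0.735. MSH3 had 1 transcript listed, NM_002439, and its counts are those of the gene. The main transcripts of PMS2 (NM_000535, 31.3% to 49.1% of the counts) and PMS1 (NM_000534, 30.7% to 42.5%) were not called either.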

How the data were processed

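Total RNA of 6 COV434 samples was sequenced. SOAPnuke read filtering and the Dr. Tom system were used by the authors. The submitters' processing notes name HISAT2, Bowtie2, RSEM 1.3.1, DESeq2 1.4.5 and GRCh38.p13, without their roles. The authors deposited expected counts per gene and transcript, not normalized, of which 85.5% of gene values were whole, and TPM and FPKM values scaled to length and depth. Columns of their own comparison (log2 fold change, p-value and q-value) were deposited and not used, and a second gene table held the same values.

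Rounded expected counts entered edgeR 4.0.16 (R 4.3.3, TMM, filterByExpr, quasi-likelihood test, condition only), two-sided, with Benjamini-Hochberg adjustment over the 12368 genes tested. Intervals at 95% used the test's degrees of freedom. A ratio of 2 genes was compared by an exact permutation test of its log2 value. In 5 simulations of 4HC against control with 12282 to 12303 genes tested, 38% to 62% of genes changed by 0.2 on the log2 scale, 78% to 86% of those changed by 0.5 and 92% to 100% of those changed by 1 were recovered, and 2.91% to 4.85% of calls were false. The simulations gave all genes a common spread (biological coefficient of variation 0.0277) and changed far fewer genes than were called in the data. These rates may therefore not hold for the data. Replicates differed by more than sampling noise (chi-square per gene 1.70 to 2.47). Totals of 16133786 to 16702316 counts limit precision by counting error, and 0 counts allow up to 3.

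The members and lists were chosen with earlier results of these data known. Named were all members and all genes of the lists on excision, resynthesis and ligation, linked factors and nucleases. Also named were the 3 largest called changes of the G1/S, G2/M and p53 lists and the nearest neighbours. The 3 genes most alike and the 3 transcripts with the most counts over all samples were named as well. XM_005267534, MCM6 and the cell type markers given by name were named after their values were seen. Neighbours came from the deposited coordinates, and NDUFA10 was left out because its deposited range spans most of a chromosome. Motifs were searched in RefSeq promoters, which were found for all 6 members. Some other genes and the sequence at a start site are not reported here. Alternatives were DESeq2 1.42.0, its size factors within edgeR, library size only, no filter, at least 10 counts in every sample, limma 3.58.1 on log2 of TPM or FPKM, a replicate block, and leaving out each sample.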

Additional observations from a re-analysis of the deposited data

How the results depend on the processing

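EXO1 was higher and MSH6 lower, both with an adjusted p under 0.05, in all 15 alternatives. The log2 fold change of EXO1 was 0.45 to 0.49 when 1 sample was left out and 0.45 to 0.49 under the others, and that of MSH6 was -0.17 to -0.13 and -0.15 to -0.12. The adjusted p of MSH6 was highest, at 0.0298, among alternatives that kept all samples. With limma on log2(FPKM + 1), 2 members were called as higher, since PMS1 was added (0.13), and 1343 genes were called as lower compared with 2118. Of the members that were not called, 2 changed sign when 1 sample was left out: MSH3 was at -0.0169 without 4HC replicate 3 (range -0.0169 to 0.101) and MLH3 at 0.0304 without control replicate 1 (range -0.124 to 0.0304). The log2 difference of the ratio of MLH3 to PMS2 was 0.00620 without control replicate 2 and between -0.158 and 0.00620 over all left-out samples. DESeq2 called 1 transcript of the members, XM_005267534. The cause was not tested for any of these. Without each sample in turn, 3622 to 4246 genes were called, and DESeq2 on all samples called 3178, compared with 4497 in the main fit. Samples with the same number deviated together little (r = 0.017, 0.075 and 0.016 across 12368 genes). With 3 samples a group this cannot tell whether they were paired, and the sources used here do not say. With the replicate number as a block 4213 genes were called, and the members called were the same 2, EXO1 at 0.47 and MSH6 at -0.15. At this depth the intervals of MSH3 and MLH3 were the widest of the members, and changes inside them were not detectable. Outlying samples were not looked for with 3 samples a group.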
